A study of Mus musculus with 98 samples.

Results

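The mouse cytochrome P450 genes of families 1 to 4 were examined in livers that had been repopulated with human or with murine hepatocytes. Members were the mouse rows of the liver count table whose symbol starts with Cyp1, Cyp2, Cyp3 or Cyp4 followed by a subfamily letter and a number, and whose mean reached 1 CPM (count per 1e6 mouse counts) in at least 1 of the 2 arms. Of 81 such rows among 19689 mouse rows, 59 were members and 22 lay under the minimum in both arms. In 51 members the mean reached the minimum in both arms. Cyp1b1, Cyp2b19, Cyp2c40, Cyp2c65, Cyp2d11, Cyp2s1 and Cyp4f18 reached it in the human-repopulated arm only and Cyp2d12 in the murine arm only, so these 8 entered through the arm in which their plain CPM was higher. The nearest rows outside were Cyp4f39, with means of 0.997 and 0.518 CPM in the 2 arms, and Cyp4f37, with 0.956 and 0.317 CPM. Just inside lay Cyp2d11, with 1.19 and 0.667 CPM.

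All mice were FRGN, which combines deletions of Fah, Rag2 and Il2rg with a non-obese diabetic background. They were male and 10 weeks old, and both arms had gone through cycles of nitisinone (NTBC) with sulfamethoxazole, trimethoprim and dextrose in the drinking water. The product of Fah completes the breakdown of tyrosine, and hepatocytes without it are lost when NTBC is withdrawn. Donor hepatocytes were injected into the spleen, human ones in the Hu arm (15 livers) and murine ones in the Mu arm, the control (12 livers). Livers were taken at ZT 2, 6, 10, 14, 18 and 22 (zeitgeber time, counted in hours from when the lights come on). Each time had 2 livers per arm, except for 3 in the Hu arm at ZT 2, 6 and 18. The labels state that mice with a human repopulation over 70% were used. Mouse transcripts of a Hu liver come from the host, that is from its remaining hepatocytes, its other liver cells and its blood cells, whereas those of a Mu liver also come from the murine donor hepatocytes. The labels do not say whether replicates shared a donor or a cage, so p-values measure the spread between these livers.

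P450 enzymes of these families are haem proteins of the endoplasmic reticulum that take electrons from cytochrome P450 reductase (Por) and oxidise drugs, pollutants, steroids and fatty acids. Most are made in hepatocytes, many of them mainly in those around the central vein, where Wnt signalling maintains the zone. Their genes are classic targets of ligand-activated receptors, namely the aryl hydrocarbon receptor for CYP1, CAR and PXR for CYP2B, CYP2C and CYP3A, and PPAR alpha for CYP4A, and several differ between the sexes through the pattern of growth hormone release. The mouse genome holds many recent copies, so that 13 CYP2C members lie on chromosome 19, 8 CYP2D members on chromosome 15, and 11 members of CYP2A, CYP2B and their neighbours within chr7:25802475-27133660 (GRCm38).

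The make-up of the P450 message differed between the arms. The closely related genes Cyp2a5 and Cyp2a4 together held 62.3% of all P450 member counts in the median Hu liver, with a range from 34.9 to 75.1%. In Mu livers they held 4.25%, with a range from 2.48 to 16.1%. The highest of these was the first Mu liver of ZT 10, and the next was 7.34%. Cyp2e1, which oxidises ethanol and acetaminophen, led in Mu livers with 24.98% (19.1 to 29.5%) and held 1.70% (0.446 to 5.23%) in Hu livers. The ranges of the arms did not overlap for either. These shares need no scaling between libraries. All members together took 2.23 ± 0.163% of mouse counts in Mu livers (SD, n = 12) and 1.90 ± 0.786% in Hu livers (SD, n = 15), where the range ran from 0.364 to 2.85%.

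**Figure D1:**
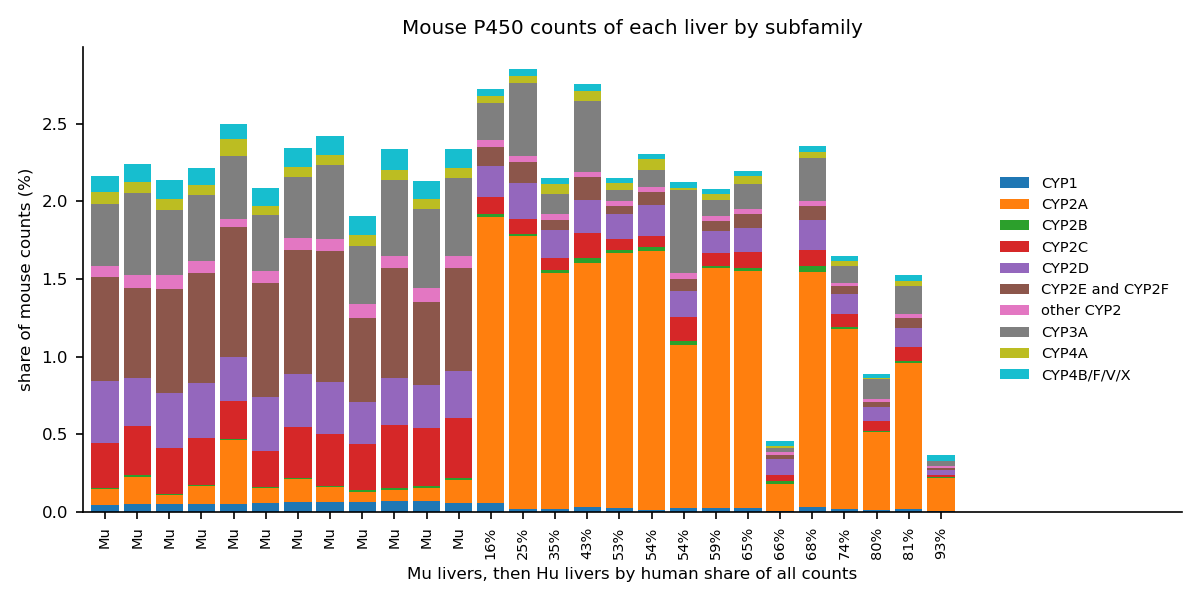
Share of each liver's mouse counts that fell on P450 members, stacked by subfamily, for the 12 Mu livers and for the 15 Hu livers in the order of their human share of all counts (percent under each bar). CYP2A, mostly Cyp2a5 and Cyp2a4, fills most of the bar in nearly every Hu liver, and CYP2E and CYP2F, CYP3A, CYP2C and CYP2D fill most of it in Mu livers.

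Counts were also set on a common scale for comparisons of single genes. All levels from here on, unless stated, are normalised CPM, counts per 1e6 mouse counts after the TMM scaling of edgeR, and each log2 difference is Hu minus Mu from edgeR's quasi-likelihood fit, with its standard error and a Benjamini-Hochberg adjusted p over the 14977 mouse genes tested. By that test 15 of 59 members were higher in Hu livers and 37 lower, with 7 not called. Over all genes tested, 42.5% were higher and 37% lower. The median log2 difference was -1.19 over the members and 0.07 over all genes. Of the 51 members that reached the minimum in both arms, 9 were higher and 36 lower, and of the 8 others 6 were higher and 1 lower. Every Hu liver lay below every Mu liver for 22 of 59 members (12.5% of all genes), and 0 members had every Hu liver above every Mu liver (7.52% of all genes). The scale matters for the count. With mouse-row library size and no TMM factors the median over all genes became 0.74, with 20 members higher and 29 lower (72.6 and 12.9% of all genes). Scaling to the summed hepatocyte markers gave 1.32, with 21 members higher and 27 lower (79.3 and 5.82% of all genes). Scaling to all counts, human rows included, gave -0.68, with 8 members higher and 39 lower (17.5 and 60% of all genes). Under all 5 scalings run, Cyp1a1, Cyp1b1, Cyp2a4, Cyp2a5, Cyp2b19, Cyp2c40, Cyp2c65 and Cyp2g1 were called higher and 27 members lower. Of these 8, Cyp1b1, Cyp2b19, Cyp2c40 and Cyp2c65 had become members through the Hu arm alone, which favours that direction. Scaling to all counts ended the calls of Cyp2a12, Cyp2b9, Cyp2c55, Cyp2s1, Cyp4a31, Cyp4f16 and Cyp4f18 as higher. Scaling to hepatocyte markers ended those of Cyp2b13, Cyp2c39, Cyp2c68, Cyp2d26, Cyp2r1, Cyp3a13, Cyp3a25, Cyp4a12b, Cyp4f13 and Cyp4f17 as lower, and mouse-row library size ended 8 of these 10, all but the last 2 named. Of the 7 members not called with TMM, Cyp2a22, Cyp2d11, Cyp2j6, Cyp3a59 and Cyp4b1 were called higher by both of these scalings, Cyp4a10 by that to hepatocyte markers, and Cyp4a14 by none. The fitted sign differed between scalings for 12 members, of which Cyp2c68, Cyp2r1, Cyp3a13, Cyp4a12b and Cyp4f16 were called by the TMM fit.

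**Figure D2:**
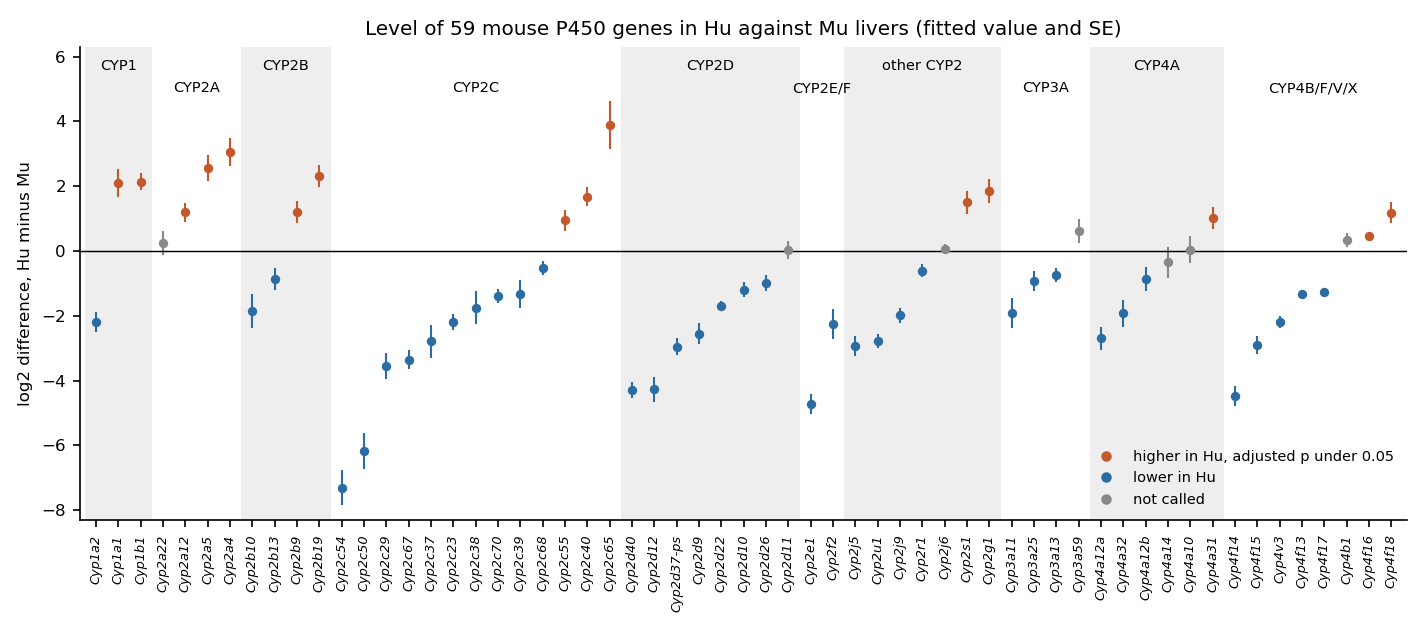
Fitted log2 difference between Hu and Mu livers (points) with its standard error (bars) for each of the 59 members, grouped by subfamily and coloured by the call at an adjusted p of 0.05. Cyp2c65 (3.90, but 2.26 without 1 Hu liver, and a member through the Hu arm alone) and Cyp2a4 (3.07) stand highest, and Cyp2c54 (-7.31) and Cyp2c50 (-6.18) lowest.

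Per library, mouse rows held 7.70 to 87.9 M (1e6) counts in Hu livers and 97.1 to 118 M in Mu livers. Human and mouse rows together held 22.95 M counts in the second Hu liver of ZT 22, and 97.1 to 122 M in the other livers. Human rows took 15.9 to 93.1% of the counts of Hu livers (median 58.7%) and 0.0059 to 0.0204% in Mu livers. The share was under 70% in 11 of 15 Hu livers. It is a share of RNA counts and need not equal the share of hepatocytes to which the labels refer. Fah, deleted in the host, ranged from 3.45 to 34.2 normalised CPM in Hu livers and from 568 to 941 in Mu livers. Of the other deleted genes, Rag2 lay between 0.550 and 1.85 CPM in Hu and between 0.124 and 0.475 CPM in Mu livers, and Il2rg between 1.35 and 5.68 CPM and between 1.24 and 3.82 CPM. Counts were thus present for both in every liver, and counts per gene do not show which part of a gene they cover. Of 15 hepatocyte markers, 13 were lower in Hu livers and 0 higher (37 and 42.5% of all genes). Their summed CPM was 12579 to 131390 in Hu and 142930 to 200030 in Mu livers. All 9 stellate cell, 8 sinusoidal endothelial and 8 bile duct markers were higher, and 5 of 8 Kupffer cell and macrophage markers (42.5% of all genes). The markers, and genes outside the members in later paragraphs, were called on the TMM scale only. Scaling to all counts called 17.5% of all genes higher, and calls of single markers under it were not examined. No marker of these lists was at 0 in all livers. Albumin, the defining hepatocyte product, had a median of 45540.0 CPM in the Hu arm and 80837 CPM in the Mu arm. In bulk tissue, fewer hepatocytes and less of a message per hepatocyte cannot be told apart. The part of these cell types in the differences between the arms was not tested. In 3 Hu livers, the first of ZT 10, the second of ZT 14 and the third of ZT 18, the members summed to 3349.8, 6942 and 2016 CPM, against 11407 to 27554 in the other 12. The hepatocyte marker share of the ZT 10 and ZT 14 livers (12.7 and 12.5% of mouse counts) lay within the range of the other 12, and that of the ZT 18 liver was 2.27%. These 3 livers were picked by the sums of the members themselves. Without them, 16 members were higher and 35 lower (41.4 and 36.3% of all genes).

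The upstream sequences of 7 members that the results turn on are given from the RefSeq promoter table (GRCm38.p6), which held 46 of the 59 members. Each runs 5′ to 3′ from 250 bases before the RefSeq start and ends at the start or where an annotated exon begins. Cyp2a4 and Cyp2a5 are shown because they rose together, Cyp1a1 and Cyp1b1 as the CYP1 genes that rose, Cyp2c29 and Cyp2e1 as abundant genes that fell, and Cyp4f16 for its daily rhythm. Capitals mark matches, on either strand, to GCGTG (core of the site bound by the aryl hydrocarbon receptor), CACGTG (E-box), TTATGTAA (D-box), CTTTGAT (bound by TCF factors of Wnt signalling), TTCNNNGAA (STAT5) or GTTAAT (HNF1).
Cyp2a4, chr7:26306942-26307168, plus strand: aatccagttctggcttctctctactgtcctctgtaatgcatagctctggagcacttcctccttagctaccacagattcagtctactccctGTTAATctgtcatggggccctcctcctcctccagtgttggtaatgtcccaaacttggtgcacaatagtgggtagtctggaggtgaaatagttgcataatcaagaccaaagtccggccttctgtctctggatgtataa
Cyp2a5, chr7:26835089-26835304, plus strand: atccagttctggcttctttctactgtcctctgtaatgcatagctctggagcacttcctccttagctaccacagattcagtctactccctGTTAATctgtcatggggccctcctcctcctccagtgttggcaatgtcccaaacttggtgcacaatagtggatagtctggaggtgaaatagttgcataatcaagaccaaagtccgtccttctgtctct
Cyp1a1, chr9:57697363-57697612, plus strand: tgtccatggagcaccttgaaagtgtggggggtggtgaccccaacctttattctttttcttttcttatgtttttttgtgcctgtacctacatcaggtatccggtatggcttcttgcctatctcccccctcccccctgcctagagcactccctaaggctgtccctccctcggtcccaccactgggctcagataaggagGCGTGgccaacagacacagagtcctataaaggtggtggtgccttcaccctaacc
Cyp1b1, chr17:79715062-79715311, minus strand: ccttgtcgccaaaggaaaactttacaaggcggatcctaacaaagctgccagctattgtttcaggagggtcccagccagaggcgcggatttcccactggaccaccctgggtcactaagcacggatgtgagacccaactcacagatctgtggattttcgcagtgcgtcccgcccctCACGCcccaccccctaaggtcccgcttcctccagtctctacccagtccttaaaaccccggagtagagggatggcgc
Cyp2c29, chr19:39286835-39287073, plus strand: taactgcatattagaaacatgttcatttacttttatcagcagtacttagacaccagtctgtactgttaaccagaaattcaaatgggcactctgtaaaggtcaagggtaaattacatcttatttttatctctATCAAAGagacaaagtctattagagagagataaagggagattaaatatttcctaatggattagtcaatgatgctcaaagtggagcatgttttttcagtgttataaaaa
Cyp2e1, chr7:140763569-140763738, plus strand: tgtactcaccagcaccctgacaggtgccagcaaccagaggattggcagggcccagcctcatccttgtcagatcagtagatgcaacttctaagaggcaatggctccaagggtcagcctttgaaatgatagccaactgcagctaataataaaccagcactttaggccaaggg
Cyp4f16, chr17:32536307-32536556, plus strand: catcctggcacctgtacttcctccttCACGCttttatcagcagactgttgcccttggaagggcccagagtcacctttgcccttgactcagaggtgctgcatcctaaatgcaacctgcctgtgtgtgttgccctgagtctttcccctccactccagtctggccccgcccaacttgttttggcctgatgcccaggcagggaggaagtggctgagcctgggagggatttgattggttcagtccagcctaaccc
The windows of Cyp2a4 and Cyp2a5 are the same at 245 of 249 bases after a shift of 1 base, and both hold a GTTAAT. In the 250-base windows, GCGTG was found in 8 of 46 members, Cyp1a1, Cyp1b1, Cyp2b10, Cyp2c68, Cyp2j9, Cyp4f14, Cyp4f16 and Cyp4v3, and in 28.2% of all promoter windows. GTTAAT was found in 7 members and 6.43% of all windows, CTTTGAT in Cyp2c29 and Cyp2c39 and 3.21%, CACGTG in Cyp2j6 and Cyp4v3 and 6.02%, and TTCNNNGAA in Cyp4b1 and Cyp4f13 and 7.02%. TTATGTAA was in no member's window and in 0.819% of all. A match describes the letters in a short window and is no evidence of binding.

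Among the CYP2A genes, which oxidise coumarin, nicotine and steroids, 3 of 4 were higher in Hu livers (42.5% of all genes). Cyp2a5 (chr7:26835305-26843548) ranged from 512 to 3499.9 CPM in Mu livers, with a median of 984, and from 558 to 12249 CPM in Hu livers, with a median of 8669. The difference was 2.56 ± 0.39 (adjusted p 2.2e-06), and 12 of the 15 livers exceeded the whole Mu range. The other 3 were those with the low P450 sums. The sum includes Cyp2a5 itself, which held 46.7% of the member counts in the median Hu liver, so the 2 are not independent. Cyp2a4 (chr7:26307169-26315088), a testosterone 15-alpha-hydroxylase more abundant in female liver, rose from a median of 246 CPM (129 to 1086) to 3122 CPM (225 to 4489.5). It differed by 3.07 ± 0.43, and again 12 of the 15 livers exceeded the whole Mu range. The Mu maximum of both genes lay in the first Mu liver of ZT 10. Reads of this pair can be hard to assign, since 36.1% of the 50-base stretches of Cyp2a4 transcripts also occur in Cyp2a5 (GENCODE M21). Cyp2a12, which hydroxylates steroids, rose from a median of 105 CPM (79.8 to 129) to 228 CPM (15.6 to 440.1), a 2.29-fold difference (adjusted p 0.00064), with 12 of 15 Hu livers above every Mu liver. Under scaling to all counts its adjusted p was 0.16, which leaves 2 of 4 CYP2A genes higher. Cyp2a22 was not called, with 4.81 CPM at the Mu median, 8.32 CPM at the Hu median and an adjusted p of 0.53. Per kilobase of exon, Cyp2a5 stood at 4182 CPM in the median Hu liver, ahead of Cyp2a4 (1796) and Cyp2d26 (268). In Mu livers Cyp2e1 (3497), Cyp3a11 (909) and Cyp2f2 (835) led, and Cyp2a5 (475) was the eighth.

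The 3 CYP1 genes, which activate and clear aromatic hydrocarbons and are induced through the aryl hydrocarbon receptor, did not move together. Cyp1a2, the constitutive member in hepatocytes around the central vein, fell from a median of 773 CPM (538 to 921) to 151 CPM (18.4 to 459), with every Hu liver below every Mu liver (-2.19 ± 0.31, adjusted p 8.0e-07). Cyp1a1, its inducible neighbour on chromosome 9, ranged from 1.41 to 15.01 CPM in Mu livers (median 2.67) and from 1.22 to 80.1 CPM in Hu livers (median 17.4). It rose by 2.10 ± 0.44, but just 8 of the 15 exceeded every Mu liver. Cyp1b1, which is made in many cells other than hepatocytes, rose from 0.865 CPM (0.705 to 2.07) to 3.99 CPM (1.43 to 12.4), and 14 of the 15 exceeded every Mu liver (2.14 ± 0.26). It became a member through the Hu arm alone, which favours that direction. The receptor gene Ahr itself was not called (0.17 ± 0.15, adjusted p 0.30). Of 5 other targets of the receptor, Nqo1, Tiparp, Ahrr and Aldh3a1 rose and Ugt1a6a fell (42.5 and 37% of all genes). Nqo1, a quinone reductase, went from a median of 9.92 CPM to 159 CPM (3.47 ± 0.33), and is also a target of the oxidative stress factor NRF2.

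CYP2B genes are the classic targets of CAR, the product of Nr1i3. Cyp2b10, the most inducible of them, fell from 45.6 CPM (13.4 to 96.7) to 4.31 CPM, but its Hu livers spread from 0.0719 to 78.4 CPM and 5 of 15 lay within the Mu range (-1.86 ± 0.53, adjusted p 0.0028). Cyp2b9, more abundant in female liver, rose from 55.7 CPM (14.9 to 111) to 130.2 CPM (14.5 to 312), a difference of 1.21 ± 0.34 and 10 of the 15 were higher than any Mu liver. It was not called when libraries were scaled to all counts. Cyp2b19, known from skin, was near the minimum in Mu livers (0.728 CPM, 0.264 to 1.98) and rose to 4.76 CPM (0.503 to 8.46) in Hu livers (2.31 ± 0.34, adjusted p 1.4e-06). It became a member through the Hu arm alone, so its direction was favoured by the choice. Cyp2b13 fell by 0.86 ± 0.35, a call lost under the scalings by hepatocyte markers and by mouse-row library size. Nr1i3 fell from 188 CPM (101.1 to 401) to 31.6 CPM (4.96 to 78.0), with every Hu liver below every Mu liver (-2.42 ± 0.28).

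CYP2C enzymes oxidise arachidonic acid, retinoids and many drugs, and 10 of 13 members fell while 3 rose (37 and 42.5% of all genes). The deepest losses of all members were Cyp2c54, from 146 CPM (62.7 to 220.3) to 0.321 CPM (0 to 4.76), and Cyp2c50, from 242 CPM (133 to 364) to 1.64 CPM (0.144 to 18.6). Their differences were -7.31 ± 0.54 and -6.18 ± 0.55, and every Hu liver was far below every Mu liver. In 3 Hu livers Cyp2c54 had at most 3 counts, so single levels there are imprecise. Cyp2c29, an abundant epoxygenase, fell from 1765 CPM (1181 to 2346) to 112 CPM (14.6 to 483). Cyp2c67 fell from 667 CPM (433 to 879) to 72.8 CPM (4.81 to 138), again without overlap. Cyp2c70, which makes the muricholic bile acids of mice, fell less, from 828 CPM (569 to 1411) to 357 CPM (49.7 to 544), a difference of -1.39 ± 0.22 without overlap. The genes Cyp2c37, Cyp2c38 and Cyp2c39 fell with overlap, by 2.79, 1.75 and 1.33. The first Hu liver of ZT 18 was highest of its arm in each, with 35.9, 117 and 210.1 CPM, against Mu maxima of 51.4, 63.6 and 179.7 CPM. The call of Cyp2c39 was lost under scaling to hepatocyte markers (adjusted p 0.103) and with mouse-row library size (0.071). Cyp2c23 fell by 2.19 on the log2 scale, and Cyp2c68 by 0.52, the latter with a sign that depends on the scaling. Of those that rose, Cyp2c55, whose call was lost under scaling to all counts, went from 3.52 to 8.55 CPM and Cyp2c40 from 1.27 to 3.58 CPM, with 7 and 13 of 15 Hu livers above every Mu liver. Cyp2c65, known from the gut, went from a median of 0.117 CPM to 0.568 CPM but reached 46.8 CPM in the second Hu liver of ZT 18. Its difference of 3.90 ± 0.74 became 2.26 without that liver. Cyp2c40 and Cyp2c65 became members through the Hu arm alone, which favours that direction. Cyp2c40, Cyp2c67 and Cyp2c68 share 43.3 to 60.3% of their 50-base stretches with other genes, so their counts are uncertain as single genes.

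CYP2D genes, relatives of the human drug-metabolising CYP2D6, fell in 7 of 8 cases (37% of all genes). In 6 every Hu liver lay below every Mu liver (12.5% of all genes). Cyp2d9, a testosterone 16-alpha-hydroxylase of male liver, fell from 1841 CPM (1389 to 2449) to 386 CPM (17.7 to 625), a difference of -2.56 ± 0.32. Cyp2d40 fell from 127 CPM (76.5 to 205) to 6.42 CPM (1.29 to 13.2), with the smallest p of all lower members (-4.29 ± 0.24, adjusted p 3.7e-13). Cyp2d12 fell from 4.54 CPM (1.44 to 8.34) to 0.194 CPM (0 to 1.06), and the pseudogene Cyp2d37-ps by 2.95 on the log2 scale. Cyp2d12 became a member through the Mu arm alone, which favours a fall. Smaller differences without overlap were those of Cyp2d22 (299.5 to 93.7 CPM at the medians) and Cyp2d10 (795 to 405 CPM). Cyp2d26 fell from 957 CPM (809.6 to 1246) to 479.6 CPM (57.3 to 847), and its call was lost under the scalings by hepatocyte markers and by mouse-row library size. Cyp2d11, a member through the Hu arm alone, was not called, at 0.812 and 0.935 CPM. Its sign turned under scaling to all counts, and it was called higher under scaling to hepatocyte markers (0.91, adjusted p 0.0078) and with mouse-row library size (0.67, adjusted p 0.025).

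Cyp2e1 (chr7:140763739-140774987) fell from 7546 CPM (5327 to 8966) to 252 CPM (72.4 to 754), a difference of -4.72 ± 0.31 (adjusted p 4.0e-12). It was 289 CPM in the Hu liver with the smallest human share, 15.9%, and 375.6 CPM in the next, 24.96%. Cyp2f2, a lung and liver enzyme that acts on naphthalene, fell from 1692 CPM (1213 to 1882) to 346 CPM (10.5 to 939), also without overlap. Of 11 P450 genes known as pericentral, 9 fell (37% of all genes), Cyp2a5 rose, and Cyp4a14 was not called. All 11 pericentral genes outside the P450 families fell, among them the glutamine synthetase gene Glul (1484 to 151 CPM), and the Wnt targets Axin2 (15.6 to 6.61 CPM) and Lgr5 (4.84 to 0.887 CPM). Of 12 periportal genes outside the P450 families 8 fell and 2 rose (37 and 42.5% of all genes). The median log2 difference was -3.29 over the pericentral and -1.59 over the periportal genes outside the P450 families. Cyp2f2 was in none of these zone lists.

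CYP3A enzymes oxidise bile acids, steroids and a large share of drugs and are induced through PXR. Cyp3a11, the main member of mouse liver, fell from 4628 CPM (3797 to 6054) to 658 CPM, with Hu livers spread from 118 to 4242 CPM (-1.91 ± 0.47, adjusted p 0.00067). In 14 of 15 Hu livers it lay below every Mu liver. Cyp3a25 fell from 744 CPM (543 to 1026) to 366 CPM (39.2 to 827) and Cyp3a13 from 50.6 to 27.7 CPM, each with 10 of 15 Hu livers below every Mu liver. The call of Cyp3a25 was lost under the scalings by hepatocyte markers and by mouse-row library size, and Cyp3a13 changed sign between scalings. Cyp3a59 was not called, at 31.3 and 39.6 CPM.

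CYP4A enzymes hydroxylate fatty acids at their end and are targets of PPAR alpha. Cyp4a12a, the arachidonic acid hydroxylase of male mice, fell from 587 CPM (452 to 664) to 100.3 CPM (6.98 to 208) without overlap (-2.70 ± 0.36). Cyp4a32 and Cyp4a12b fell by 1.93 and 0.87, and Cyp4a31 rose from 2.30 to 5.54 CPM. The call of Cyp4a31 was lost under scaling to all counts (adjusted p 0.38), and the sign of Cyp4a12b depends on the scaling. Cyp4a10 (70.3 and 99.0 CPM) and Cyp4a14 (37.6 and 49.3 CPM) were not called. Both spread widely within the Mu arm, up to 267 and 346 CPM in the first liver of ZT 10. The next highest Mu values were 225 and 145 CPM. Cyp4a12a and Cyp4a12b share 48.9% of the stretches of the former. Of 12 other PPAR alpha targets, 7 fell and 3 rose (37 and 42.5% of all genes), the latter being Vnn1, Fgf21 and Cidec.

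In the remaining CYP4 members, which act on fatty acids, leukotrienes and vitamins, 5 of 8 fell and 2 rose (37 and 42.5% of all genes). Cyp4f14 fell from 419 CPM (255 to 533) to 15.1 CPM (5.74 to 55.5), a difference of -4.48 ± 0.31 without overlap. Cyp4f15, Cyp4v3 and Cyp4f13 fell by 2.91, 2.20 and 1.32, all without overlap, and Cyp4f17 by 1.28. The calls of Cyp4f13 and Cyp4f17 were lost under scaling to hepatocyte markers. Cyp4f18, a leukotriene hydroxylase of neutrophils and other myeloid cells, rose from 0.690 CPM (0.496 to 3.48) to 1.85 CPM (1.005 to 5.17), a call lost under scaling to all counts. It became a member through the Hu arm alone. Cyp4f16 rose from 7.05 to 10.2 CPM (0.47 ± 0.12), but no Hu liver lay above every Mu liver, and its sign turned under scaling to all counts. Cyp4b1 had the same median, 21.5 CPM, in both arms, with 17.4 to 26.7 CPM in Mu and 11.1 to 101.5 CPM in Hu livers. It was called lower under scaling to all counts (-0.64) and higher under scaling to hepatocyte markers (2.05).

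Among the other CYP2 genes, Cyp2j5, an epoxygenase of liver and kidney, fell from 814 CPM (465 to 997) to 105 CPM (11.5 to 232), a difference of -2.93 ± 0.30 without overlap. Cyp2u1 fell from 74.2 CPM (51.9 to 146) to 13.5 CPM (2.87 to 24.8), also without overlap (-2.78 ± 0.21). Cyp2j9 fell by 1.99, and the vitamin D 25-hydroxylase Cyp2r1 by 0.62, the latter a call lost under scaling to hepatocyte markers and with mouse-row library size. Cyp2j6 was not called, at 95.6 CPM (78.5 to 112) and 108 CPM (34.6 to 134), and was called lower under scaling to all counts (-0.58, adjusted p 0.047) and higher under scaling to hepatocyte markers (1.06). Cyp2g1, known from the olfactory lining, rose from 1.34 CPM (0.397 to 4.84) to 5.81 CPM (0.503 to 18.8), and Cyp2s1 from 0.907 CPM (0.423 to 2.77) to 2.01 CPM (0.913 to 12.9). Both Hu maxima lay in the second Hu liver of ZT 22, the library with the fewest counts in all. The call of Cyp2s1 was lost under scaling to all counts, and Cyp2s1 became a member through the Hu arm alone.

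**Figure D3:**
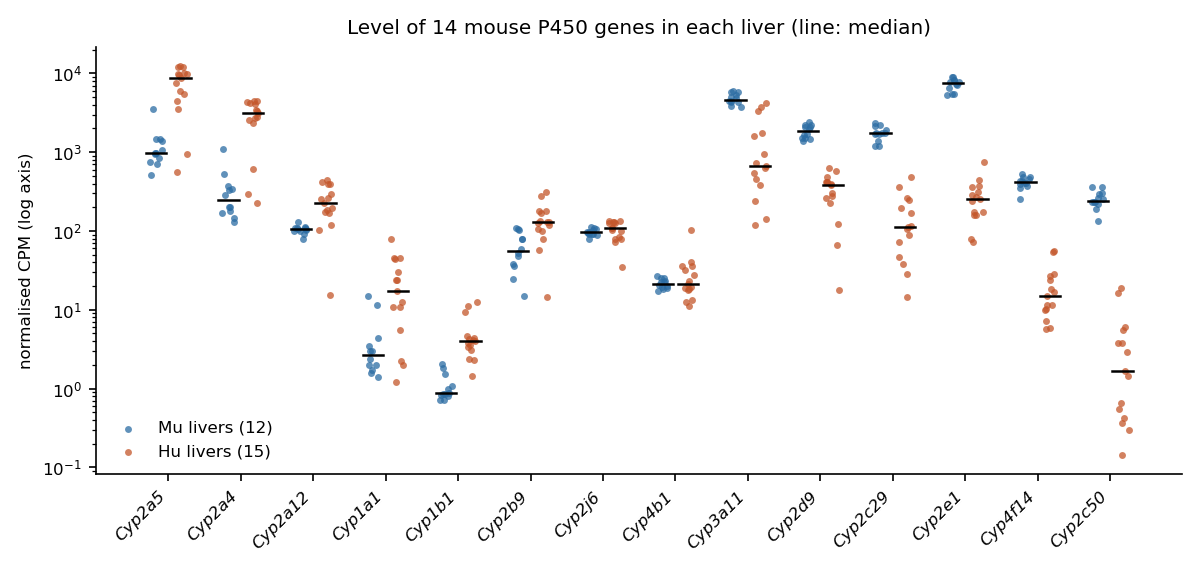
Normalised CPM (log axis) of 14 members in each of the 12 Mu and 15 Hu livers, with the median as a line. Cyp2a5 and Cyp2a4 are higher in 12 of 15 Hu livers than in any Mu liver, while Cyp2d9, Cyp2c29, Cyp2e1, Cyp4f14 and Cyp2c50 are lower in every Hu liver, and Cyp3a11 in 14 of 15.

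P450 genes that differ between the sexes in mouse liver were taken as 2 lists, although all mice here were male. All 7 P450 genes known as higher in male liver fell (37% of all genes), with a median of -2.56. They are Cyp2d9, Cyp2u1, Cyp4a12a, Cyp4a12b, Cyp2f2, Cyp1a2 and Cyp2j5. Of 14 tested genes known as higher in female liver, 4 rose (42.5% of all genes), namely Cyp2a4, Cyp2b9, Cyp2c40 and Cyp2g1. Of these 4, Cyp2c40 became a member through the Hu arm alone, which favours that direction. A further 5 fell and 5 were not called, with a median of -0.21 over the 14. Of the 5 not called, Cyp2c69, Cyp3a16 and Cyp3a44 were under the minimum of 1 CPM in both arms. Outside the P450 families, 9 of 9 tested male-biased genes fell, such as the organic anion carrier gene Slco1a1 (1114 to 1.12 CPM at the medians), and 7 of 9 female-biased genes rose. Cux2, a transcription factor of female liver, rose from 1.08 CPM (0.643 to 1.48) to 9.06 CPM (2.93 to 46.0), with every Hu liver above every Mu liver. Bcl6, a repressor known from male liver, fell from 29.6 CPM (10.5 to 152) to 12.2 CPM (6.54 to 28.2), with overlap.

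Genes that serve the P450 system were tested as lists. Of 14 genes of electron supply and haem turnover, 9 fell and 1 rose (37 and 42.5% of all genes), with a median of -0.92. The reductase gene Por (199.7 and 254 CPM) and the rate-limiting haem synthesis gene Alas1 (202 and 237 CPM) were not called, whereas the later haem synthesis genes Alad and Cpox fell by 1.84 and 2.19 without overlap. The gene that rose was the haem oxygenase Hmox1 (65.2 to 186 CPM). Of 22 receptors and transcription factors of P450 genes, 18 fell and 2 rose, with a median of -0.73. Hnf4a fell by 0.78, Ppara by 0.98 and the PXR gene Nr1i2 by 0.53. Genes of these lists were called on the TMM scale only. Members with falls of similar size, such as Cyp3a13 (-0.75) and Cyp2d26 (-0.98), lost their calls under scaling to hepatocyte markers.

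The spread between livers was larger in the Hu arm. The median coefficient of variation over members was 59.7% in Hu and 25.8% in Mu livers, against 26.5 and 22.4% over all genes tested. It was larger in the Hu arm for 50 of 59 members and for 57.6% of all genes. The third Hu liver of ZT 18, with 93.1% human counts, had the lowest level of its arm for 42 members. In the Mu arm the first liver of ZT 10 was lowest for 21 members. Levels of the members were set against the human share of the counts across the 15 Hu livers, in a fit that also held the time of day, as a slope in log2 units per 10 points of human share. Of 57 members tested, 22 fell (18.8% of all genes) and 3 rose (22.9% of all genes), and the median slope was -0.32 over members and -0.01 over all genes. Among those that fell, Cyp2d22 had a slope of -0.20 ± 0.04 (adjusted p 0.0022), Cyp4f13 of -0.17 ± 0.04 and Cyp2a22 of -0.49 ± 0.09. Scaling to hepatocyte markers turned the slopes of Cyp2d22 and Cyp4f13 positive, to 0.14 and 0.18. Cyp2d22 ranged from 39.9 CPM at the highest share to 131 CPM at the lowest. Cyp3a11 fell with a slope of -0.59 ± 0.19, while Cyp2e1 (-0.29 ± 0.13, adjusted p 0.092), Cyp2a5 (-0.32 ± 0.16) and Cyp2a4 were not called.

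The rising members were Cyp4b1 (0.33 ± 0.05, adjusted p 0.00038), Cyp1b1 (0.29 ± 0.08) and Cyp4f18 (0.27 ± 0.09). Cyp1b1 and Cyp4f18 became members through the Hu arm alone. Under scaling to all counts no member rose, and the slopes of Cyp1b1 and Cyp4f18 turned to -0.03 and -0.04. Cyp4b1 was 12.6 CPM in the Hu liver with the smallest human share and 101.5 CPM in that with the largest. Cyp1b1 went from 1.43 to 12.4 CPM between the same livers. Rising as well were 9 of 9 stellate cell, 7 of 8 endothelial, 5 of 8 Kupffer cell and 5 of 8 bile duct markers (22.9% of all genes). Of 15 hepatocyte markers, 7 fell (18.8% of all genes). The part of these cell types in the slopes was not tested. Counts depend on single livers, on the scale and on whether the replicate number is in the fit. With the replicate number added as a block, 1 member fell and 1 rose (2.91 and 7.82% of all genes). Without the second Hu liver of ZT 2, 14 members fell (11.7% of all genes). Without the third of ZT 18, 1 rose (13.8% of all genes). Without the 2 livers farthest from the median share, those with 15.9 and 93.1% human counts, 13 fell and 1 rose (7.42 and 11.8% of all genes). With libraries scaled to hepatocyte markers, 5 fell and 5 rose (0.295 and 80.8% of all genes). With libraries scaled to all counts, 49 fell and 0 rose (80 and 0.548% of all genes), and with DESeq2 35 fell and 3 rose (22.5 and 25.7% of all genes).

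**Figure D4:**
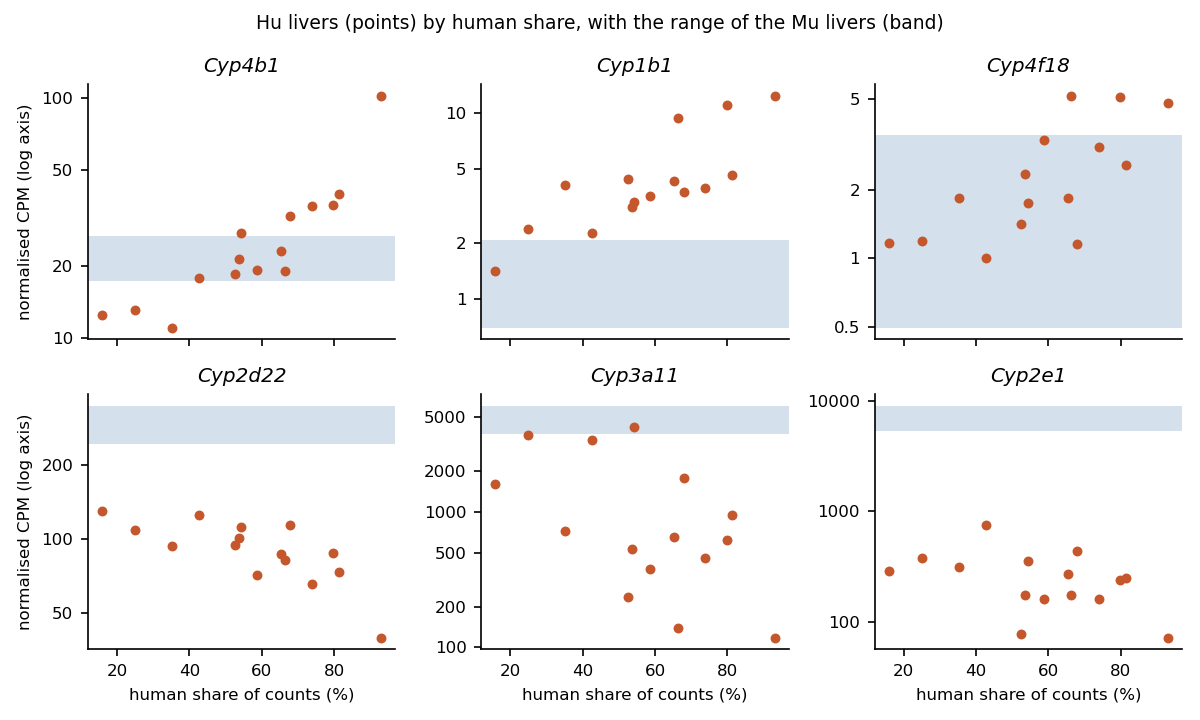
Normalised CPM (log axis) of 6 members against the human share of counts in the 15 Hu livers, with the range of the 12 Mu livers as a band. Cyp4b1 and Cyp1b1 are highest at 93.1% human counts and Cyp2d22 lowest, while Cyp2e1 lies below the band at every share.

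A 24 h rhythm was tested in each arm with a cosine and sine term. In the fit of both arms together, 1 of 59 members was rhythmic in Mu livers (17.3% of all genes), 0 in Hu livers (0.167% of all genes), and 0 had a different rhythm between arms (1.28% of all genes). At an unadjusted p under 0.05 the counts were 2, 13 and 7 (31.7, 15.8 and 21% of all genes), and with DESeq2 they were 1, 4 and 1 (25.2, 3.45 and 7.69% of all genes). The rhythmic member in Mu was Cyp4f16, with an amplitude of 0.59 ± 0.21 (log2, jackknife SE over libraries) and a peak at ZT 4.65 ± 1.23 h (adjusted p 0.0082). Its livers gave 8.24 and 16.1 CPM at ZT 2, 7.44 and 10.8 at ZT 6, 8.62 and 10.1 at ZT 10, 4.71 and 5.42 at ZT 14, 4.56 and 6.66 at ZT 18, and 6.01 and 6.63 at ZT 22. All 6 livers from ZT 2 to 10 were thus above all 6 from ZT 14 to 22. In Hu livers Cyp4f16 had an amplitude of 0.12 ± 0.10, and the difference in rhythm was not called (adjusted p 0.19). The call was lost with time as a factor and under the scalings to all counts and to hepatocyte markers, which called 0 members (4.27, 0.568 and 0.434% of all genes). Without the third Hu liver of ZT 18, 2 members were called in Mu livers (23.8% of all genes), and without the 3 livers of low P450 sum 3 were (25.2% of all genes).

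The fit of both arms uses 1 estimate of each gene's spread. The coefficient of variation over all times was larger in Hu livers for 50 of 59 members (57.6% of all genes). The part of this spread in the calls of either fit was not tested. With the 12 Mu livers fitted alone, 21 of 58 members were rhythmic, and 28.9% of all 13577 genes. Their amplitudes ran from 0.24 to 1.19, with a median of 0.39. Cyp2b10 had the largest, with a peak at ZT 18.5 and mean levels of 18.7 CPM at ZT 6 and 87.1 CPM at ZT 18 (adjusted p 0.0008). Cyp3a13, a CYP3A enzyme, had the smallest p, with an amplitude of 0.59 and a peak at ZT 17.6, rising from 35.1 CPM at ZT 6 to 74.5 CPM at ZT 18 (adjusted p 0.00051). Cyp2j9 peaked at ZT 4.92, from 23.2 CPM at ZT 2 to 11.4 at ZT 14, and Cyp2s1 at ZT 5.11. The CYP2C genes Cyp2c29, Cyp2c37, Cyp2c50, Cyp2c54 and Cyp2c70 peaked between ZT 19.7 and 20.6, Cyp4f14 at ZT 20.05 and Cyp3a11 at ZT 20.9, whereas Cyp2c23 peaked at ZT 8.88. In all, 12 of the 21 peaked in the dark phase between ZT 12 and 24. The abundant Cyp2e1 was not called in Mu livers, with an amplitude of 0.25 in the Mu livers fitted alone (adjusted p 0.070). In the fit of both arms its amplitude was 0.26 (adjusted p 0.81). The Hu livers fitted alone gave 0 rhythmic members (0.0576% of 13879 genes). That members are called in Mu livers and not in Hu livers does not show that the rhythms differ, since the test of the difference called none.

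In Hu livers the smallest p-values for rhythm were those of Cyp2c65, Cyp1a1, Cyp4b1 and Cyp2d11. Cyp1a1 had an amplitude of 1.56 ± 0.77 with a peak at ZT 1.26 (adjusted p 0.14), and its mean level was 49.2 CPM at ZT 2, 3.88 CPM at ZT 10 and 37.6 CPM at ZT 22. The values at ZT 2 ran from 23.9 to 80.1 CPM and those at ZT 10 from 2.22 to 5.53 CPM. In Mu livers its levels lay between 1.41 and 15.01 CPM with both extremes at ZT 10. For a different rhythm the smallest p was that of Cyp2g1 (adjusted p 0.12), with mean levels in Mu and Hu livers of 3.98 and 1.82 CPM at ZT 10 and of 1.05 and 14.4 CPM at ZT 22. The first Hu liver of ZT 22 had 9.92 CPM of Cyp2g1, and the second, of low depth, 18.8 CPM. The low values of Cyp1a1 and Cyp2g1 at ZT 10 and 18 include the livers with low P450 sums. Human share was not in the rhythm fits and differed between times. It was 15.9 to 73.9% at ZT 2, 24.96 to 65.3% at ZT 6 and 66.3 to 81.3% at ZT 10. At ZT 14, 18 and 22 it was 67.9 to 79.8%, 53.7 to 93.1% and 42.7 to 52.5%. Its part in the rhythm of Hu livers and in the test of a different rhythm was not tested. Of genes that serve P450s, Por and Alas1 were rhythmic in Mu livers in the fit of both arms, with peaks at ZT 13.1 and 13.7 and amplitudes of 1.27 and 1.48.

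**Figure D5:**
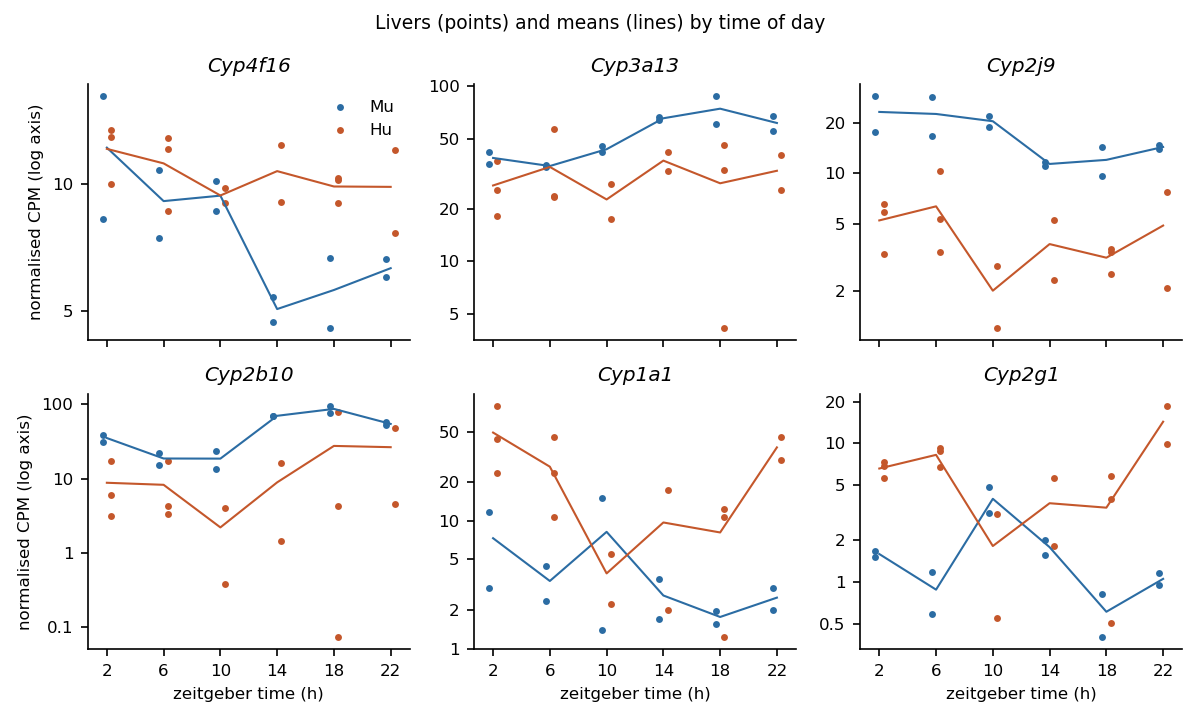
Normalised CPM (log axis) of 6 members by zeitgeber time in Mu and Hu livers, with points for livers (set 0.3 h apart by arm) and lines for the mean of each time. In Mu livers Cyp4f16 and Cyp2j9 are higher from ZT 2 to 10 and Cyp3a13 and Cyp2b10 from ZT 14 to 22, while Hu livers of the same time spread widely for Cyp2b10, Cyp1a1 and Cyp2g1.

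Outside the liver few members reached a mean of 1 CPM (plain, per 1e6 mouse counts) in either arm, 14 of 59 in skeletal muscle, 14 in the arcuate nucleus and 13 in the suprachiasmatic nucleus. Cyp2d22 was at 25.8 ± 2.17 CPM in Hu (SD, n = 10) and 27.8 ± 4.06 CPM in Mu arcuate nucleus (SD, n = 12). In suprachiasmatic nucleus it was at 32.4 ± 2.21 CPM and 32.7 ± 2.81 CPM, so that the arms differed by less than the spread in both. In muscle, Cyp2e1 was at 51.5 ± 68.0 CPM in Hu (SD, n = 15) and 17.9 ± 17.3 CPM in Mu (SD, n = 12), with SDs about as large as the means. These values were not tested.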

How the data were processed

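RNA sequencing gave raw counts per gene, which the authors deposited as whole numbers with no normalization, 1 column per library. In the liver table each row is a human or a mouse gene with its Ensembl identifier. Per the submitters' processing notes, STAR and the builds GRCm38 and GRCh38 were among the tools and references used. The counting program and its handling of reads that fit several genes or both species are not given in the sources used here, which bears on near-identical P450 copies. Symbols were matched to 19615 of 19689 mouse rows. Gene positions and transcript sequences came from GENCODE M21 (GRCm38).

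Mouse rows of the 27 livers were fitted with edgeR 4.0.16 in R 4.3.3, with library sizes over mouse rows, TMM scaling, the filter filterByExpr and a model of an intercept, the arm and a 24 h cosine and sine per arm. All 59 members passed the filter. Adjusted p-values under 0.05 by Benjamini-Hochberg over all genes count as calls, from edgeR unless DESeq2 1.42.0 is named. The slope on human share was fitted in the 15 Hu livers, where Cyp2c54 and Cyp2d12 did not pass the filter. Plain CPM was used for membership and for other tissues. The fits were tested on simulated data. No library pair of 1 arm and time agreed within sampling noise. Livers of equal replicate number in both arms were checked for pairing (correlation of deviations from 0.0129 to 0.313, above 0.1 in 7 of 12 pairs) and were not paired. At ZT 10, 14 and 22, with 2 livers per arm, the 2 pairs of a time give the same value and count as 1.

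Members and gene lists were chosen with earlier results of these data known. Named members are the 2 most abundant of each subfamily, those with the smallest p-values of each test and those at the minimum in 1 arm. Others named in the text were chosen after their values were seen. Intervals for human share cover counting error only. The alternatives tried were DESeq2, other scalings, no filter, a replicate block, fewer libraries, time as a factor, each arm alone, and a logit or untimed share.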

Additional observations from a re-analysis of the deposited data

How the results depend on the processing

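Of the 7 counts of members, the higher count was 8 with libraries scaled to all rows and 15 to 21 otherwise, and the lower count stayed between 27 and 39. The members that fell with human share numbered 22, and 35 with DESeq2 (22.5% of all genes), 49 with all-row scaling (80%), 5 with hepatocyte marker scaling (0.295%) and 13 without the 2 livers farthest from the median share. Those that rose numbered 3, and 0 with all-row scaling (0.548% of all genes) and 5 with hepatocyte marker scaling (80.8%). The number was 1 with replicate numbers 1 and 2 only (15.2%) and 1 without the 2 farthest livers (11.8%). With the replicate block, 1 fell with share (2.91% of all genes) and 1 rose (7.82%). The counts higher and lower with it were 15 and 35. The labels do not say whether livers of equal replicate number shared a donor or a cage. The rhythmic count in Mu livers was 1, and 0 with all-row scaling, hepatocyte marker scaling or time as a factor, 2 with replicate numbers 1 and 2, 21 with Mu livers alone and 3 without the 3 livers of lowest P450 sum, an alternative added after seeing the data. In Hu livers it was 0, and 4 with DESeq2 (3.45% of all genes) and 23 with all-row scaling (57.6%). A different rhythm was called for 1 member with DESeq2. Leaving out 1 library gave 14 to 27 falling and 1 to 3 rising with share (10.3 to 20.9 and 13.8 to 24.1% of all genes). The counts were 15 higher throughout and 35 to 37 lower (41.9 to 42.9 and 36.2 to 37.4% of all genes). Rhythmic were 1 to 2 in Mu and 0 to 2 in Hu livers (9.72 to 23.8 and 0.0536 to 5.54% of all genes). With all-row scaling the log2 differences of Cyp2a22 (-0.357), Cyp2d11 (-0.673), Cyp2j6 (-0.581), Cyp3a59 (-0.026), Cyp4a10 (-0.629), Cyp4b1 (-0.637) and Cyp4f16 (-0.303) turned negative. With hepatocyte marker scaling those of Cyp2c68 (0.319), Cyp2r1 (0.289), Cyp3a13 (0.0969), Cyp4a12b (0.0824) and Cyp4a14 (0.446) turned positive. Signs of slopes were followed only for the members named by the share test. Of these, Cyp1b1 (-0.0271) and Cyp4f18 (-0.0427) reversed with all-row scaling. Cyp2d22 (0.136) and Cyp4f13 (0.177) turned positive with hepatocyte marker scaling. Without 1 library, the difference of Cyp2d11 lay between -0.125 and 0.12, below 0 in 6 cases, and that of Cyp4a10 between -0.189 and 0.416, below 0 in 10. DESeq2 gave no adjusted p for 4 of the named members, which count as neither kept nor lost. For members under 1 CPM in an arm, depth in Hu livers of few mouse counts limits the precision. The causes of these changes were not tested.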
